A study of Mus musculus with 12 samples.

Results

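The MHC class I presentation genes studied here are the 10 genes H2-K1, H2-D1, B2m, Tap1, Tap2, Tapbp, Nlrc5, Erap1, Psmb8 and Psmb9, chosen by name, and all 10 were found among the 26855 genes of the count table. They were followed in alveolar macrophages, the resident phagocytes of the air spaces, taken from the lavage fluid of Mus musculus lungs on day 14 after bleomycin, an agent that injures the lung and leads to fibrosis. The lavage cells had first been divided with a size filter, which enriched or depleted the border-associated macrophages, and were then sorted on side scatter and on BODIPY, a stain for neutral lipid. The 12 libraries carry the titles UPBIG, UPSMALL and DOWN, with 4 libraries of each, and all came from bleomycin-treated mice, so no uninjured lung is part of the comparison. The labels tie no title to a filter fraction or a sorting gate, give neither strain nor age of the mice, and do not say whether the 4 libraries of a title came from separate mice. The p-values therefore measure the spread between these libraries, which may be technical.

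Class I molecules carry short peptides from proteins made inside the cell to the surface, where CD8 T cells read them. The heavy chain, encoded in the mouse by the classical genes H2-K1 and H2-D1, folds around beta-2 microglobulin (B2m). The peptides come from the proteasome, whose inducible catalytic subunits Psmb8 and Psmb9 replace constitutive ones. The transporter Tap1-Tap2 pumps them into the endoplasmic reticulum, Erap1 trims them there, and tapasin (Tapbp) holds the empty heavy chain at the transporter until a peptide fits. Nlrc5 is the transactivator that binds class I promoters, as Ciita does for class II genes. Interferons raise most of these genes.

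Upstream sequences of heavy chain genes are shown first because the heavy chains differed among themselves in the comparisons. A search of the 250 bases before the RefSeq start site (GRCm38.p6 promoter table, 27025 entries, both strands) looked for an NF-kB type motif (GGG and TTNCC with 2 bases between them) and the class I interferon element TTTCACTTC. The first occurred in 4.0% of all promoters and the second in 0.429%. Both together, with the NF-kB type motif starting 18 to 23 bases before the interferon element, occurred in 6 promoters or 0.0222%, those of H2-K1, H2-D1, H2-Q4, H2-Q6, H2-Q7 and Gpa33. The stretches of 4 of them are printed 5′ to 3′ on the strand of the gene, with both motifs in capitals, because these genes did not move together between the groups. They lie at chr17:34000429-34000458 (minus strand) for H2-K1, chr17:35262923-35262952 (plus) for H2-D1, chr17:35424677-35424706 (plus) for H2-Q6 and chr17:35439022-35439050 (plus) for H2-Q7.
H2-K1: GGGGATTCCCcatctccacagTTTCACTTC
H2-D1: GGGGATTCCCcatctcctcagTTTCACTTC
H2-Q6: GGGGATTCCCcatctccccagTTTCACTTC
H2-Q7: GGGGATTCCCatctccccagTTTCACTTC
H2-K1 and H2-D1 matched at 29 of 30 bases, as did H2-K1 and H2-Q6, and H2-D1 and H2-Q6. The H2-Q7 stretch is 29 bases long.

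B2m, H2-T22 and H2-T23 had an interferon-stimulated response element (GAAA and GAAA with 2 bases between them) instead, a motif found in 3.04% of promoters. Their stretches, with that motif in capitals on either strand, lie at chr2:122147538-122147567 (plus) for B2m, chr17:36042914-36042943 (minus) for H2-T22 and chr17:36032806-36032835 (minus) for H2-T23.
B2m: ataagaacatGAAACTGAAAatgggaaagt
H2-T22: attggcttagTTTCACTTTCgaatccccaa
H2-T23: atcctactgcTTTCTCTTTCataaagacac
The longer B2m stretch, from 149 to 2 bases before the start (chr2:122147538-122147685, plus), is given with capitals for the response element, the NF-kB type motif on the reverse strand, the X2 letters TGACG and the Y box CCAAT, on either strand. The last 2 are parts of the module bound by the RFX, CREB and NF-Y factors that Nlrc5 works through.
B2m upstream: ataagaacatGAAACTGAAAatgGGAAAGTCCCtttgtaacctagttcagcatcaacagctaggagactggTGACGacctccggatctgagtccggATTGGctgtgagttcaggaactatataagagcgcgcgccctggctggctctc
H2-K1 upstream: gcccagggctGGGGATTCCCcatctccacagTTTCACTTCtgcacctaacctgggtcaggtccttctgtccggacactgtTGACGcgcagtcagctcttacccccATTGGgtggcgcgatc
The H2-K1 stretch covers the 121 bases before its start (chr17:34000348-34000468, minus) with the same marking. TGACG is in 17.9% of promoters and CCAAT in 34.5%, so these letters alone are common. Neither the NF-kB type motif nor the 2 interferon elements was found in the windows of Tap1, Tapbp, Erap1, Psmb8 and Psmb9. Tap2 and Nlrc5 are named only. A match is a description of the letters and shows no bound factor.

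Expected read counts per library summed to between 17109669 and 23282621, and 12625 genes were tested, among them all 10 class I genes. The alveolar macrophage markers added up to 9540.3 to 12775 CPM (counts per 1000000, on trimmed library totals) in UPBIG, 9819 to 14869 in UPSMALL and 7532 to 11555 in DOWN, with all 11 detected. Of these 11, Siglecf, Marco, Fabp4, Ear1, Ear2 and Itgax were called higher in UPBIG than in DOWN and Car4 lower, with a median log2 fold change of 0.58. There 17.5% of all genes were called. Against UPSMALL, 4 were higher in UPBIG and 1 lower, where 5.7% of all genes were called. Between UPSMALL and DOWN 4 were higher and 0 lower, where 1.14% were called. Markers of other cells also differed between the groups. The 7 monocyte markers summed to 266 to 372, 1039 to 1729.7 and 2029.8 to 2179.5 CPM in the same order. The 12 T and NK cell markers, all of them detected, summed to 4.67 to 24.7, 1.95 to 8.69 and 31.4 to 114 CPM, and the 9 dendritic cell markers, all detected, to 7.32 to 13.7, 33.4 to 91.6 and 67.4 to 178. The 5 detected neutrophil markers summed to 371 to 413, 182 to 236 and 155 to 197 CPM, and the 8 epithelial markers to 16.9 to 229.9, 10.7 to 45.4 and 7.90 to 14.3. The neutrophil markers did not move together. Of the 4 tested, S100a8 was called higher in UPBIG than in DOWN and Mmp8 lower, with a median log2 fold change of -0.76. UPSMALL replicate 4 stood apart from the other 3 UPSMALL libraries (a chi-square of 91.87 to 135.93 per gene, against 19.46 to 49.56 for the other pairs within a group), and its pan-macrophage markers summed to 47111 CPM, against 92108 to 111491 in the rest. The part of these markers in the class I values was not tested, and in bulk libraries fewer cells of a type and less RNA per cell cannot be told apart.

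Compared per kilobase of exon, B2m was the most abundant of the 10 transcripts in every group and Nlrc5 the least. The length used is the union of all annotated exons of a gene, 3381 bases for Psmb8 and 3660 for Psmb9. That union can be longer than the transcripts present, which would understate a gene, so the order of genes with like values is uncertain. B2m stood at 8452 CPM per kilobase in UPBIG, 5546 in UPSMALL and 5429.7 in DOWN, H2-D1 at 1505, 925 and 867, and H2-K1 at 363, 291 and 350.2. Psmb8 followed at 83.4, 83.7 and 109.6 CPM per kilobase. Tapbp (30.9, 27.7 and 30.5) and Psmb9 (28.5, 27.6 and 29.6) lay within the spread of each other, as did Tap1 (6.15, 5.69 and 6.62) and Erap1 (5.56, 4.81 and 5.16). Tap2 stood at 2.98, 2.92 and 2.72 CPM per kilobase, below its partner Tap1 in all groups, and Nlrc5 at 1.18, 1.44 and 2.05. B2m and the H2 class I heavy chain genes together took 0.991 to 1.20% of all counts in UPBIG libraries, 0.709 to 1.02% in UPSMALL and 0.754 to 1.08% in DOWN.

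**Figure D1:**
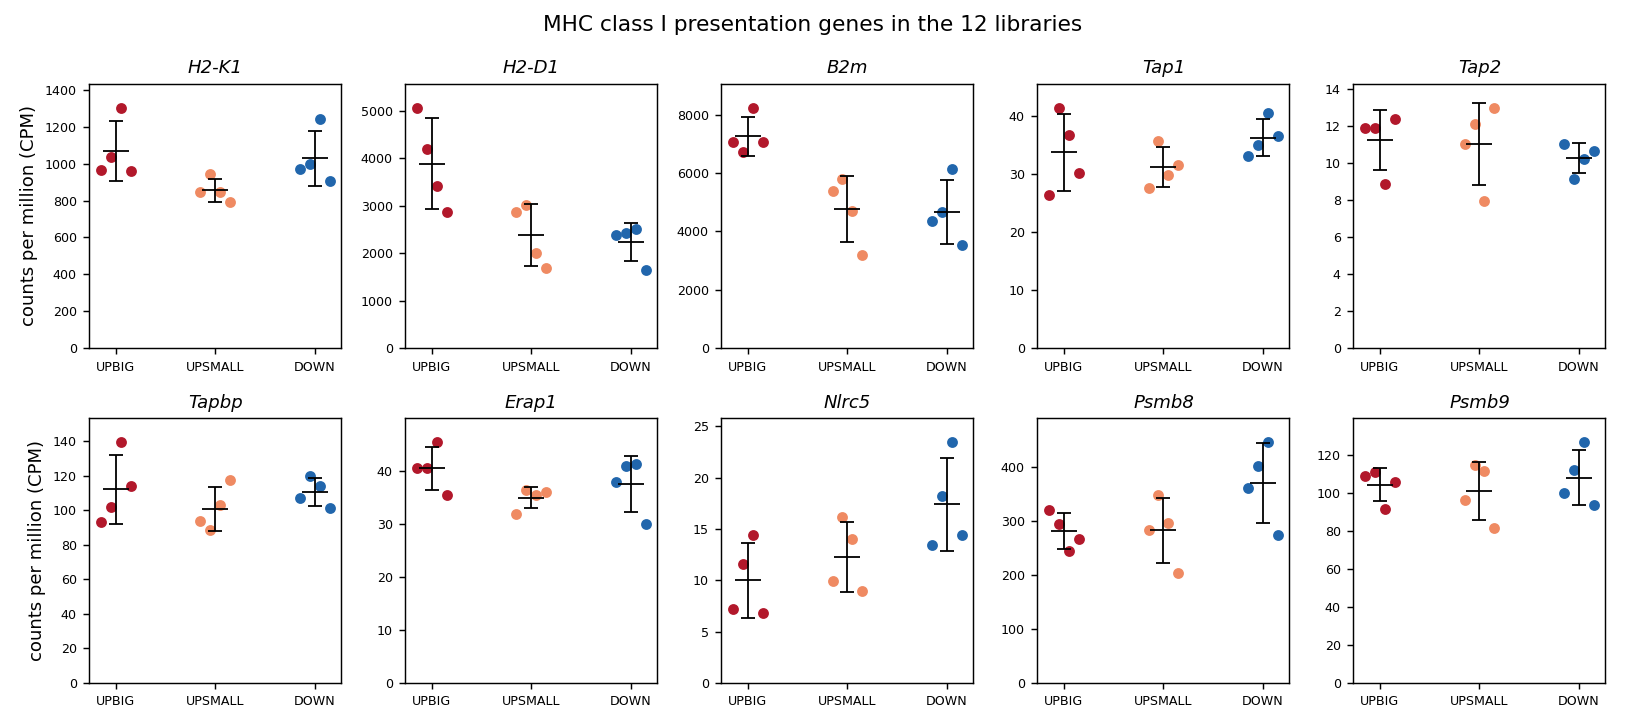
Level of each of the 10 class I presentation genes in CPM (vertical axis, starting at 0) in the 4 UPBIG, 4 UPSMALL and 4 DOWN libraries. Points are libraries, and bars mark the mean and SD of 4. The UPBIG points of H2-D1 and B2m lie above all DOWN points, and the other genes overlap between these groups.

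The comparison of UPBIG with DOWN sets apart the groups that differed most across the transcriptome. The light chain B2m and the heavy chain gene H2-D1 were higher in UPBIG, the transactivator Nlrc5 was lower, and the other 7 class I genes did not pass the test. Thus 3 of 10 were called by edgeR's quasi-likelihood test at a Benjamini-Hochberg adjusted p under 0.05, 2 higher and 1 lower, where 17.5% of all genes tested were called, 9.03% higher and 8.48% lower. The libraries of the 2 groups did not overlap for 2 of the 10 genes, H2-D1 and B2m, against 21.4% of all genes. With the replicate number as a block, 4 of 10 were called, Psmb8 being added, where 20.6% of all genes were called. The median log2 fold change of the 10 was 0.04, against -0.03 over all genes.

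H2-D1 (ENSMUSG00000073411, chr17:35262730-35267499 in mm10, plus strand) stood at 5059.6, 4195, 3412 and 2862 CPM in the UPBIG libraries, at 2854, 3013, 1995 and 1680.0 CPM in UPSMALL and at 2390.4, 2414, 2503 and 1639 CPM in DOWN, in the order of replicates 1 to 4. All UPBIG libraries lay above all DOWN libraries, while the lowest UPBIG library lay below the highest UPSMALL library. The means were 3882 ± 957, 2386 ± 649 and 2237 ± 401 CPM (SD, n = 4), and UPBIG exceeded DOWN by 0.80 ± 0.20 (SE) on the log2 scale with an edgeR adjusted p of 0.0116. It stayed called when any single library was left out, at 0.64 to 0.92, and with library totals in place of trimmed ones it stood at 0.48 (edgeR adjusted p = 0.0462).

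B2m (ENSMUSG00000060802, chr2:122147686-122153083, plus strand) stood at 7060.0, 6709, 8240.1 and 7064 CPM in UPBIG, at 5398, 5779, 4714 and 3188 CPM in UPSMALL and at 4345, 4651, 6139.9 and 3541 CPM in DOWN. The UPBIG libraries overlapped with neither of the other groups, which overlapped with each other, and UPSMALL replicate 4 was the lowest of the 12. The means were 7268 ± 669, 4769.6 ± 1142 and 4669.5 ± 1086 CPM (SD, n = 4). B2m rose by 0.64 ± 0.18 (SE) on the log2 scale from DOWN to UPBIG (edgeR adjusted p = 0.0157), and by 0.54 to 0.81 when any single library was left out, each time a call. With library totals in place of trimmed ones, B2m was 0.33 higher and no longer called (edgeR adjusted p = 0.101). The Patl2 gene spans the whole of B2m on the opposite strand, and whether the counting used strand is not known here. Gene spans were compared and not exons, so whether reads of this pair are shared is uncertain.

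H2-K1 (ENSMUSG00000061232, chr17:33996017-34000347, minus strand), the other classical heavy chain, did not follow H2-D1. It stood at 968, 1038, 1303 and 961 CPM in UPBIG, at 846, 942, 844 and 789.6 CPM in UPSMALL and at 973, 995, 1243 and 904 CPM in DOWN. UPBIG and DOWN covered nearly the same range, and every UPSMALL library lay below every UPBIG library. The log2 fold changes were 0.05 ± 0.13 (SE) for UPBIG against DOWN, 0.32 ± 0.13 for UPBIG against UPSMALL and -0.27 ± 0.13 for UPSMALL against DOWN, with edgeR adjusted p of 0.83, 0.165 and 0.382. With library totals alone the first of these became -0.26.

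The ratio of the pair within a library does not depend on how libraries are scaled. The count ratio of H2-D1 to H2-K1 was 2.62 to 5.23 in the UPBIG libraries, 2.13 to 3.37 in UPSMALL and 1.81 to 2.46 in DOWN. For B2m to H2-K1 these ranges were 6.32 to 7.35, 4.04 to 6.38 and 3.92 to 4.94. Neither ratio overlapped between UPBIG and DOWN, and UPSMALL overlapped with both other groups. The ratio of B2m to H2-D1, by contrast, was 1.40 to 2.47, 1.89 to 2.36 and 1.82 to 2.45, with overlap between all groups. These ratios were chosen after the values were seen and carry no test. The heavy chain genes resemble each other: of the 31-base words in their transcripts, 22.7% in H2-K1 and 23% in H2-D1 recur in another class I gene. Their expected counts were not whole in 11 and 12 of the 12 libraries, as where reads are shared between genes, so the division of reads among them is uncertain. The counting used mm10, and the strain of the mice, whose H2 alleles may differ from it, is not given.

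Nlrc5 (ENSMUSG00000074151, chr8:94434356-94527272, plus strand) was lower in UPBIG than in DOWN. It stood at 7.23, 11.5, 14.4 and 6.82 CPM in UPBIG, at 9.93, 16.2, 14.0 and 8.92 CPM in UPSMALL and at 13.5, 18.2, 23.4 and 14.4 CPM in DOWN. The highest UPBIG library, replicate 3, lay above the lowest DOWN library, replicate 1, and UPSMALL spread over both ranges. The means were 10.0 ± 3.64, 12.3 ± 3.42 and 17.4 ± 4.52 CPM (SD, n = 4), and Nlrc5 fell by 0.79 ± 0.26 (SE) on the log2 scale (edgeR adjusted p = 0.0412). The call was lost when UPBIG replicate 1, 2 or 4 or DOWN replicate 2 or 3 was left out, with adjusted p up to 0.155. Over all 12 fits without 1 library the log2 fold change ran from -1.02 to -0.61. Lymphocytes are known for high Nlrc5, and 8 of the 10 tested T and NK cell markers were lower in UPBIG than in DOWN; the part of this in the Nlrc5 value was not tested.

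The proteasome subunits Psmb8 and Psmb9 (LMP7 and LMP2) and the transporter genes Tap1 and Tap2 stand side by side on chromosome 17. Psmb8 stood at 322, 295, 245 and 268 CPM in UPBIG, at 284, 348, 297 and 203 CPM in UPSMALL and at 361, 402, 446 and 274 CPM in DOWN. In 3 of 4 DOWN libraries it was above every UPBIG and UPSMALL library, and DOWN replicate 4 lay among them. Its value of -0.39 ± 0.16 (SE) on the log2 scale for UPBIG against DOWN missed the threshold (edgeR adjusted p = 0.0983) and passed it by limma-voom (-0.43, adjusted p = 0.0362), with the replicate block (-0.37, edgeR adjusted p = 0.0368), without the low-count filter (-0.39, edgeR adjusted p = 0.0198), with library totals (-0.71, edgeR adjusted p = 0.000939) and without DOWN replicate 4 (-0.50, edgeR adjusted p = 0.0301). Psmb9 stood at 109, 111, 91.8 and 106 CPM in UPBIG, at 96.5, 115, 112 and 81.6 in UPSMALL and at 100.2, 112, 127 and 93.7 in DOWN, with full overlap and a log2 fold change of -0.05 ± 0.13 (SE). Its value with library totals was -0.37 (edgeR adjusted p = 0.0242).

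Tap1 ranged over 26.4 to 41.4 CPM in UPBIG, 27.6 to 35.6 in UPSMALL and 33.1 to 40.4 in DOWN, Tap2 over 8.85 to 12.4, 7.96 to 13.0 and 9.15 to 11.0 CPM. The groups overlapped for both, and the log2 fold changes between UPBIG and DOWN were -0.10 ± 0.15 and 0.13 ± 0.19 (SE). Tapbp ranged over 93.0 to 139, 88.5 to 117 and 101 to 120.1 CPM, and Erap1 over 35.5 to 45.4, 32.0 to 36.4 and 30.1 to 41.3 CPM, with log2 fold changes of 0.02 ± 0.13 and 0.11 ± 0.13. None of these 4 passed in any of the 3 comparisons. Under library totals alone the UPBIG to DOWN values of H2-K1, Tap2, Tapbp and Erap1 turned negative, at -0.26, -0.19, -0.30 and -0.21, and that of Tap1 passed the test at -0.42 (edgeR adjusted p = 0.0487). That scaling moved the median of all genes from -0.03 to -0.36, and these 5 genes lay close to that median under either scaling. Tap1 and Psmb9 overlap by 212 bases on opposite strands, Erap1 shares 834 bases with Cast on the other strand, Tapbp shares 3422 with Zbtb22 on the same strand, and Psmb8 and Tap2 lie opposite the gene model Gm20496, so reads there may be divided between them.

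**Figure D2:**
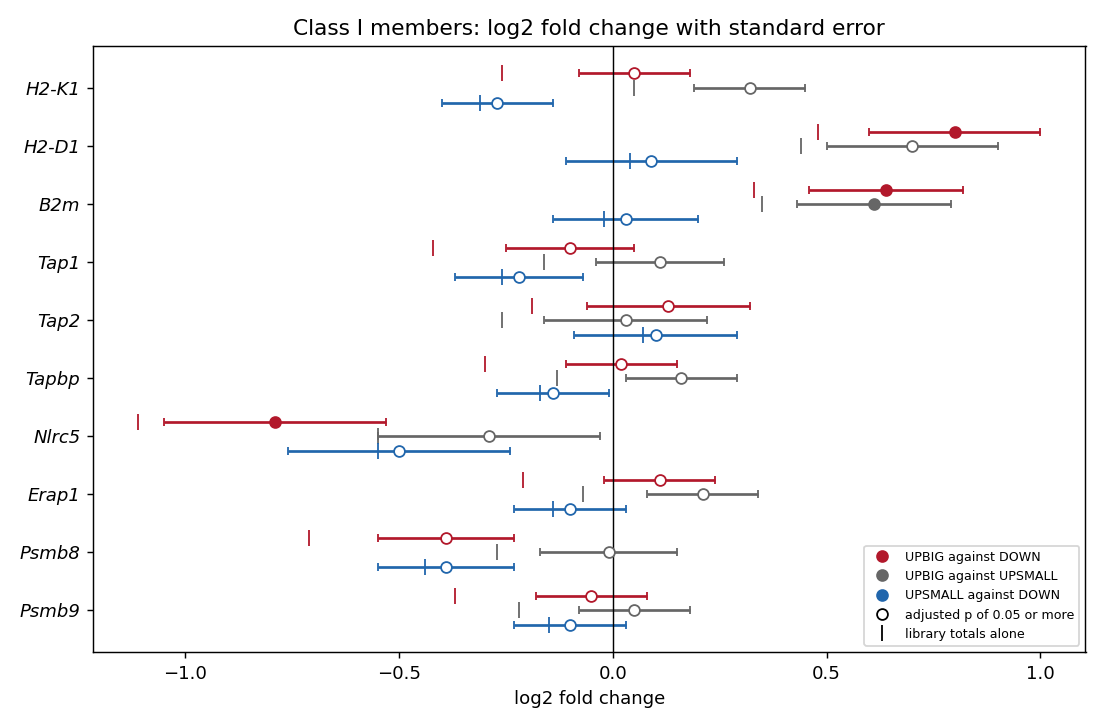
Log2 fold change (horizontal axis) of the 10 class I genes in the 3 comparisons, as points with the standard error. Filled points have an edgeR adjusted p under 0.05, and ticks mark the value with library totals alone. H2-D1 and B2m lie right of 0 and Nlrc5 left of it between UPBIG and DOWN, and the ticks that compare UPBIG with another group lie left of the points.

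Between UPBIG and UPSMALL, 1 of the 10 genes was called, where 5.7% of all genes were, and 2 of 10 did not overlap (H2-K1 and B2m), against 11.8% of all genes. The called gene was B2m, higher in UPBIG by 0.61 ± 0.18 (SE) on the log2 scale (edgeR adjusted p = 0.0477). H2-D1 stood at 0.70 ± 0.20 (edgeR adjusted p = 0.053), just outside the threshold, and DESeq2 and limma-voom each called both genes. The median of the 10 genes was 0.13, against -0.03 over all genes. The B2m call was lost in 9 of the 12 fits that left out a library, all but those without UPSMALL replicate 2 or DOWN replicate 3 or 4, with adjusted p up to 0.126, and with library totals alone no class I gene was called. Psmb8 stood at -0.01 ± 0.16 here and Nlrc5 at -0.29 ± 0.26 (SE).

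Between UPSMALL and DOWN none of the 10 genes was called by edgeR, where 1.14% of all genes were, and DESeq2 and limma-voom called 0 as well. All 10 overlapped between these groups, where 8.25% of all genes did not. At an unadjusted p under 0.05 there were 2 of 10, where 12.9% of all genes were, namely H2-K1 at -0.27 ± 0.13 and Psmb8 at -0.39 ± 0.16 (SE), both lower in UPSMALL. H2-D1 and B2m, the genes that were higher in UPBIG, stood at 0.09 ± 0.20 and 0.03 ± 0.17, and the standard errors of about that size or more leave room for a change in either direction. The median of the 10 was -0.12, against 0 over all genes. In the joint test of any difference among the 3 groups, 2 of 10 were called (H2-D1 and B2m, edgeR adjusted p = 0.018 and 0.0205), where 13.8% of all genes were. The 3 comparisons share libraries, so their values are not independent of one another.

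The other class I heavy chain genes were called in both directions between UPBIG and DOWN. Of 21 such genes listed, 18 had a count and 13 passed the low-count filter; 4 were higher in UPBIG and 3 lower, with a median of 0.02, where 17.5% of all genes were called. With library totals 3 were higher and 5 lower, with a median of -0.29, where 29.7% of all genes were called. With the replicate block 4 were higher and 4 lower, where 20.6% of all genes were called. All 4 that rose were nonclassical: H2-T22, a ligand of gamma delta T cell receptors, H2-T23, which encodes Qa-1, a ligand of NKG2A receptors, H2-T24, and Mr1, which shows vitamin B metabolites to MAIT cells. The 3 that fell were H2-Q6 and H2-Q7 of the Qa-2 group and the pseudogene H2-K2. The genes H2-M3, at 0.02 ± 0.28 (SE), H2-T10, at 0.15 ± 0.29, and H2-Q4, at -0.51 ± 0.29, did not pass.

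H2-T22 stood at 159, 190.2, 186 and 155 CPM in UPBIG, at 79.5, 94.6, 75.1 and 62.2 in UPSMALL and at 68.7, 69.95, 80.8 and 65.0 in DOWN. The UPBIG libraries lay clear of both other groups, and the log2 fold changes were 1.28 ± 0.13 against DOWN and 1.15 ± 0.13 (SE) against UPSMALL (edgeR adjusted p = 1.37e-06 and 1.24e-05). Both calls held in all 12 fits without 1 library and under every other setting tried. Its transcripts share 47.2% of their 31-base words with H2-T10, and the sum of the pair ran over 160.2 to 194, 66.7 to 97.7 and 69.3 to 85.8 CPM, with UPBIG again apart.

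H2-T23 stood at 526, 504, 389 and 404 CPM in UPBIG, at 305, 355, 270.0 and 253 in UPSMALL and at 311, 342, 317 and 211 in DOWN. All UPBIG libraries lay above all others, by 0.63 ± 0.15 (SE) on the log2 scale against DOWN and 0.63 ± 0.15 against UPSMALL (edgeR adjusted p = 0.00635 and 0.0163), and both calls were lost with library totals alone (0.32 and 0.36). The call against UPSMALL was also lost without UPBIG replicate 1 or 2 or UPSMALL replicate 3 (edgeR adjusted p up to 0.0593). Mr1 stood at 0.80 ± 0.19 and 0.68 ± 0.19 in the same comparisons (edgeR adjusted p = 0.00584 and 0.0379), and its call against UPSMALL was lost without UPSMALL replicate 3 or 4, DOWN replicate 2 or any single UPBIG library (edgeR adjusted p up to 0.129). With library totals alone Mr1 stood at 0.49 against DOWN, still called, and at 0.41 against UPSMALL, not called (edgeR adjusted p = 0.0486 and 0.132). H2-T24, a low transcript at 6.50 to 16.2 CPM in UPBIG and 2.17 to 6.26 in DOWN, rose by 1.35 ± 0.38 against DOWN, a call that was lost without UPBIG replicate 1 or DOWN replicate 3 (edgeR adjusted p up to 0.0662). The 3 H2-T genes overlap the span of A930015D03Rik on the opposite strand. Exons were not compared, so whether reads are shared with it is uncertain.

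H2-Q7 stood at 16.3, 23.3, 36.3 and 18.5 CPM in UPBIG, at 32.2, 34.9, 25.8 and 16.3 in UPSMALL and at 45.2, 63.0, 98.9 and 47.7 in DOWN. Every DOWN library lay above every UPBIG and UPSMALL library, and H2-Q7 fell by 1.43 ± 0.32 (SE) on the log2 scale in UPBIG against DOWN (edgeR adjusted p = 0.0088). In UPSMALL against DOWN it stood at -1.22 ± 0.32 and was not called (edgeR adjusted p = 0.0976). DESeq2, limma-voom, library totals and the replicate block called H2-Q7 there, and 0 of the 12 fits without 1 library did. H2-Q6, with the near-identical upstream stretch printed above, fell by 1.18 ± 0.26 in UPBIG and by 1.08 ± 0.25 in UPSMALL against DOWN (edgeR adjusted p = 0.00367 and 0.0482), the second call being lost in 9 of 12 fits without 1 library, all but those without UPBIG replicate 3 or DOWN replicate 2 or 4 (adjusted p up to 0.182). The sum of both genes ran over 27.7 to 59.5 CPM in UPBIG, 31.6 to 50.1 in UPSMALL and 73.6 to 151 in DOWN. Of the 31-base words in their transcripts, 40.4% in H2-Q6 and 31.2% in H2-Q7 recur in another class I gene. The closest genes were H2-Q4 and H2-Q10, so the sum leaves the division of reads uncertain. T and NK cell markers were also highest in DOWN, at 31.4 to 114 CPM in sum, and lymphocytes are known to carry Qa-2; the part of this in the H2-Q values was not tested. So between UPBIG and DOWN, among genes with the paired motifs described above, H2-D1 rose, H2-Q6 and H2-Q7 fell, and H2-K1 and H2-Q4 did not pass.

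**Figure D3:**
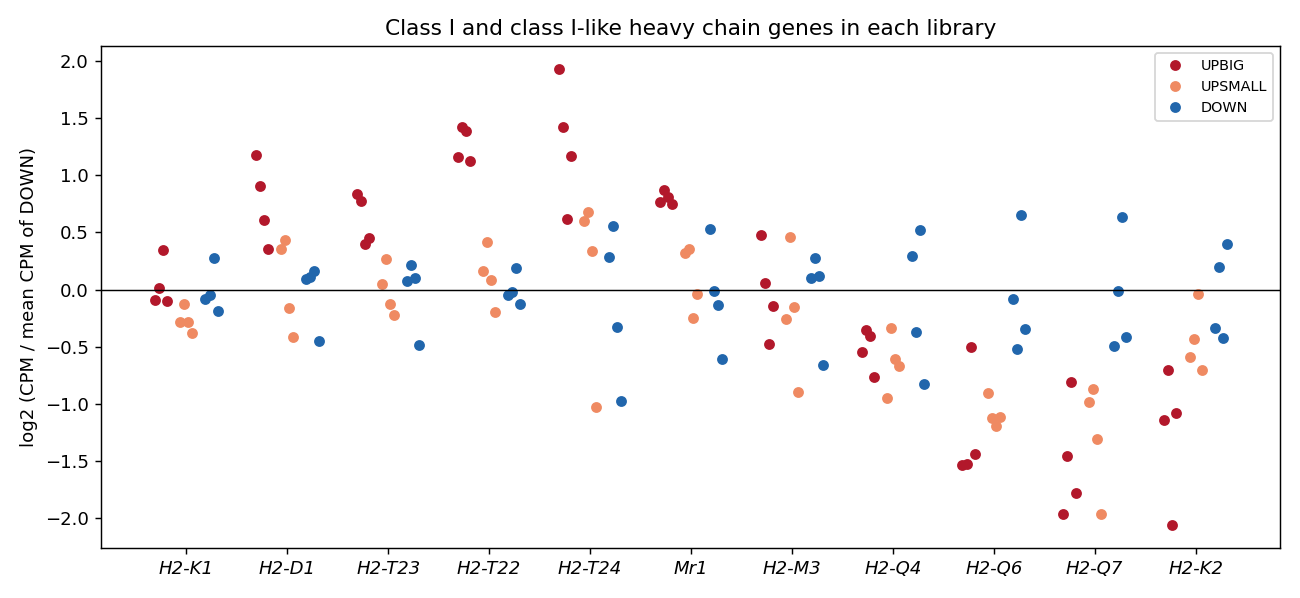
Level of 11 class I and class I-like heavy chain genes in each library, as log2 of the CPM over the mean CPM of the 4 DOWN libraries (vertical axis). Points are libraries, coloured by group. H2-D1, H2-T23, H2-T22, H2-T24 and Mr1 have their UPBIG points above the DOWN points, and H2-Q7 and H2-K2 have them below.

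The inducible subunits were also set against the constitutive subunit that each replaces, as a count ratio within each library. The ratio of Psmb8 to Psmb5 was 1.06, 1.07, 1.09 and 1.13 in UPBIG, 0.918, 1.45, 1.24 and 1.01 in UPSMALL and 1.37, 1.90, 2.28 and 1.67 in DOWN. The UPBIG libraries lay close together and below every DOWN library, and UPSMALL spread from below UPBIG into the DOWN range. The difference between UPBIG and DOWN was -0.71 ± 0.16 (SE) on the log2 scale (exact permutation p = 0.0286, two-sided, which is the lowest possible with 4 against 4 libraries, and 0.0857 after adjustment over 9 ratio tests). The ratio of Psmb9 to Psmb6 was 0.182, 0.173, 0.158 and 0.168 in UPBIG, 0.201, 0.243, 0.249 and 0.207 in UPSMALL and 0.207, 0.231, 0.273 and 0.265 in DOWN. Here UPBIG lay below both other groups, by 0.51 ± 0.10 against DOWN and 0.40 ± 0.09 (SE) against UPSMALL on the log2 scale, each with an exact permutation p of 0.0286 and 0.0857 after adjustment.

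For Psmb10 to Psmb7 the ratios overlapped between all groups (-0.30 ± 0.12 on the log2 scale for UPBIG against DOWN, exact permutation p = 0.0857, adjusted 0.154). No ratio passed after adjustment, and with 4 against 4 libraries the adjusted value could fall below the threshold only if more of the 9 tests reached the smallest p. These tests did not pair the libraries. With same-numbered libraries paired, exact sign-flip permutation tests of UPBIG against DOWN gave adjusted p of 0.225, 0.225 and 0.321 for the 3 ratios in this order. With 4 pairs the exact sign-flip permutation p cannot fall below 0.125, so that test could not reach the threshold. In the fit across genes, the constitutive subunit Psmb6 was higher in UPBIG by 0.45 ± 0.11 (SE) against DOWN and 0.45 ± 0.11 against UPSMALL (edgeR adjusted p = 0.00915 and 0.0239), the second call being lost without UPBIG replicate 2 or 4 or UPSMALL replicate 3 or 4 (adjusted p up to 0.0706), and both were lost with library totals alone (0.14 and 0.18, adjusted p = 0.346 and 0.269). It was the 1 constitutive subunit of 14 that was called in either comparison, where 17.5% and 5.7% of all genes were. Against DOWN, 2 of the 14 rose with the replicate block, where 20.6% of all genes were called. With library totals 8 fell and none rose, where 29.7% of all genes were called. Psmb6 and Psmb5 stood at 0.01 ± 0.11 and 0.25 ± 0.15 between UPSMALL and DOWN.

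**Figure D4:**
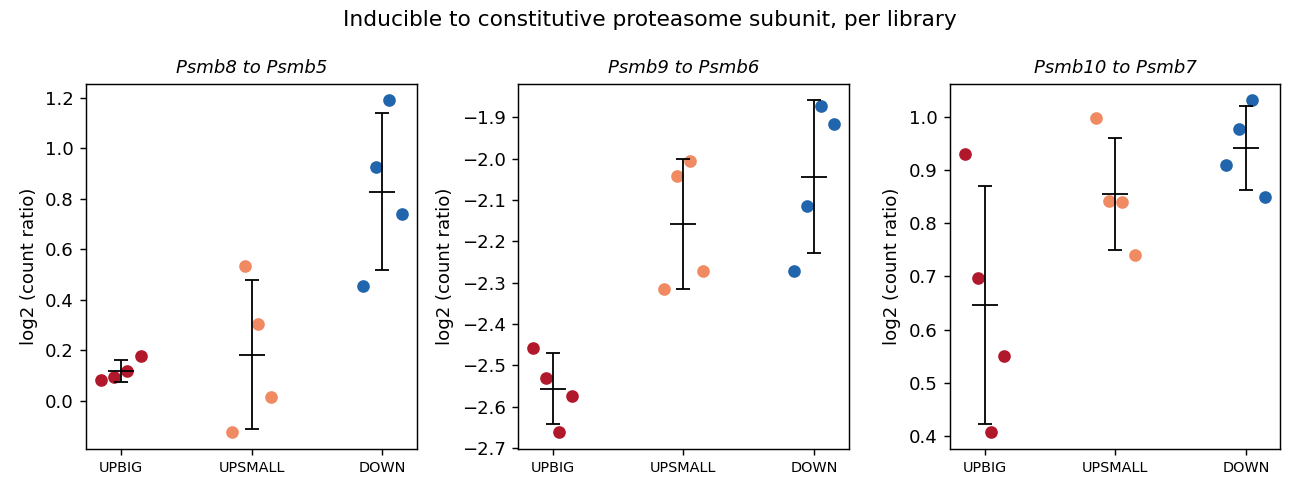
Log2 of the count ratio of an inducible to a constitutive proteasome subunit (vertical axes, each with its own range) in the 12 libraries, with mean and SD of 4. UPBIG lies below DOWN without overlap for Psmb8 to Psmb5 and Psmb9 to Psmb6, and the groups overlap for Psmb10 to Psmb7.

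The other genes of the class I machinery are set against the same 17.5% of all genes called between UPBIG and DOWN, 9.03% higher and 8.48% lower. Of 20 other loading and processing genes, 2 rose and none fell, a share below that of all genes: Lap3, a cytosolic leucine aminopeptidase, by 0.75 ± 0.16 (SE), and Bcap31, an export factor of the endoplasmic reticulum that binds class I molecules, by 0.75 ± 0.14 (edgeR adjusted p = 0.00236 and 0.000783). Both were also higher against UPSMALL, each at 0.58, calls that were lost in 6 (Lap3) and 3 (Bcap31) of the fits without 1 library. With library totals alone both stood at 0.44 against DOWN, still called, and at 0.31 against UPSMALL, not called (edgeR adjusted p = 0.19 and 0.108). That scaling called 2 of the 20 higher and 5 lower between UPBIG and DOWN, where it called 29.7% of all genes. The replicate block called 5 higher and 1 lower, where it called 20.6% of all genes. The chaperones Calr, at 0.36 ± 0.14, Canx, at 0.04 ± 0.12, and Pdia3, at -0.15 ± 0.13, did not pass. Calr passed with the replicate block and without the low-count filter (0.36 in both, edgeR adjusted p = 0.0163 and 0.036) and stood at 0.04 with library totals, under which Pdia3 passed at -0.47 (edgeR adjusted p = 0.00501) and Canx stood at -0.27. Of 6 other immunoproteasome and regulator genes, 2 rose, the proteasome activator Psme3 by 0.46 ± 0.14 and the assembly factor Pomp by 0.28 ± 0.09 (edgeR adjusted p = 0.0262 and 0.0372), and with library totals alone Psme3 was at 0.14 and Pomp at -0.04 (edgeR adjusted p = 0.532 and 0.81). Neither passed without the low-count filter (edgeR adjusted p = 0.0605 and 0.125). The Psme3 call was lost without UPBIG replicate 1 or 3 or DOWN replicate 1 or 2, and that of Pomp without any single UPBIG library or DOWN replicate 1, 2 or 3 (edgeR adjusted p up to 0.0674 and 0.0958). The interferon-inducible Psmb10, Psme1 and Psme2 stood at -0.20 ± 0.11, -0.13 ± 0.14 and -0.15 ± 0.12, and with library totals they passed, at -0.51, -0.44 and -0.47 (edgeR adjusted p = 0.00157, 0.0148 and 0.00444).

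Of 18 transcription regulators, Stat2 and Nfkb1 fell in UPBIG against DOWN, by 0.67 ± 0.20 and 0.48 ± 0.13 (SE) on the log2 scale, and none rose, where 8.48% of all genes fell and 9.03% rose. Irf1 and Rfx5, at 0.24 ± 0.23 and -0.27 ± 0.42 (SE), did not pass. Among 24 tested genes of the interferon gamma response, 3 fell and none rose: the receptor chain Ifngr1 by 0.43 ± 0.13, the kinase Jak2 by 0.95 ± 0.21 and Ciita by 2.37 ± 0.32. The median of that list was -0.07, against -0.03 over all genes. Among 25 genes of the type I interferon response, Isg15, Bst2 and Ifi27 rose, by 1.44 ± 0.40, 0.73 ± 0.18 and 0.42 ± 0.14 (SE), and Oas2 fell by 1.17 ± 0.23, with a median of 0.03. The called shares of these 3 lists were below the 17.5% of all genes called in either direction. With library totals 29.7% of all genes were called, 518 higher and 3237 lower. The calls then numbered 9 lower among the 18 regulators, 6 lower in the interferon gamma list, and 1 higher and 5 lower in the type I list. The called share of the regulators was then above that of all genes, and those of the interferon lists were below it. Irf1 turned to -0.07. Of the calls with trimmed totals, Stat2 was lost without UPBIG replicate 1 or 3 or DOWN replicate 3 or 4. Nfkb1 was lost without UPBIG replicate 1 or DOWN replicate 2 or 3, and Isg15 without UPBIG replicate 1. Ifngr1 was lost without UPBIG replicate 3 or 4 or DOWN replicate 1, 2 or 3, and Ifi27 without UPBIG replicate 2, 3 or 4 or DOWN replicate 2, 3 or 4 (edgeR adjusted p up to 0.103 over these 5 genes). Bst2 and Ifi27 were not called with library totals (0.40 and 0.10, edgeR adjusted p = 0.0643 and 0.557), under which Nfkb1 and Ifngr1 stood at -0.79 and -0.75. Stat2 and Isg15 were not called by limma-voom (-0.58 and 1.12, adjusted p = 0.0551 and 0.0827).

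The class II genes, which serve peptides from ingested proteins, fell across most of their list. Ciita, the class II transactivator, stood at 2.62, 1.49, 2.23 and 1.09 CPM in UPBIG, at 3.88, 6.45, 7.03 and 3.71 in UPSMALL and at 8.79, 12.1, 8.11 and 9.62 in DOWN, with no overlap between any groups. Of 10 class II presentation genes, 9 fell between DOWN and UPBIG, with a median of -3.43, where 8.48% of all genes fell, and 8 fell between UPSMALL and UPBIG, with a median of -1.96, where 5.7% of all genes were called in either direction. H2-Eb2 had no count in UPBIG; at its bound, 3 counts over the 4 libraries, it was at least 41-fold lower than in DOWN and 16.1-fold lower than in UPSMALL, and both medians were the same. Along chromosome 17 the class I genes Psmb9, Tap1, Psmb8 and Tap2 fill the interval from 34181987 to 34216321, between H2-DMb1 on one side and H2-Ob on the other. H2-DMb1 fell by 1.59 ± 0.15 and H2-Ab1, just beyond H2-Ob, by 3.41 ± 0.30 (SE), while the 4 class I genes between them stood at -0.05 ± 0.13, -0.10 ± 0.15, -0.39 ± 0.16 and 0.13 ± 0.19. The summed monocyte and dendritic cell markers given above were also lower in UPBIG than in DOWN, without overlap, and their part in this contrast was not tested.

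**Figure D5:**
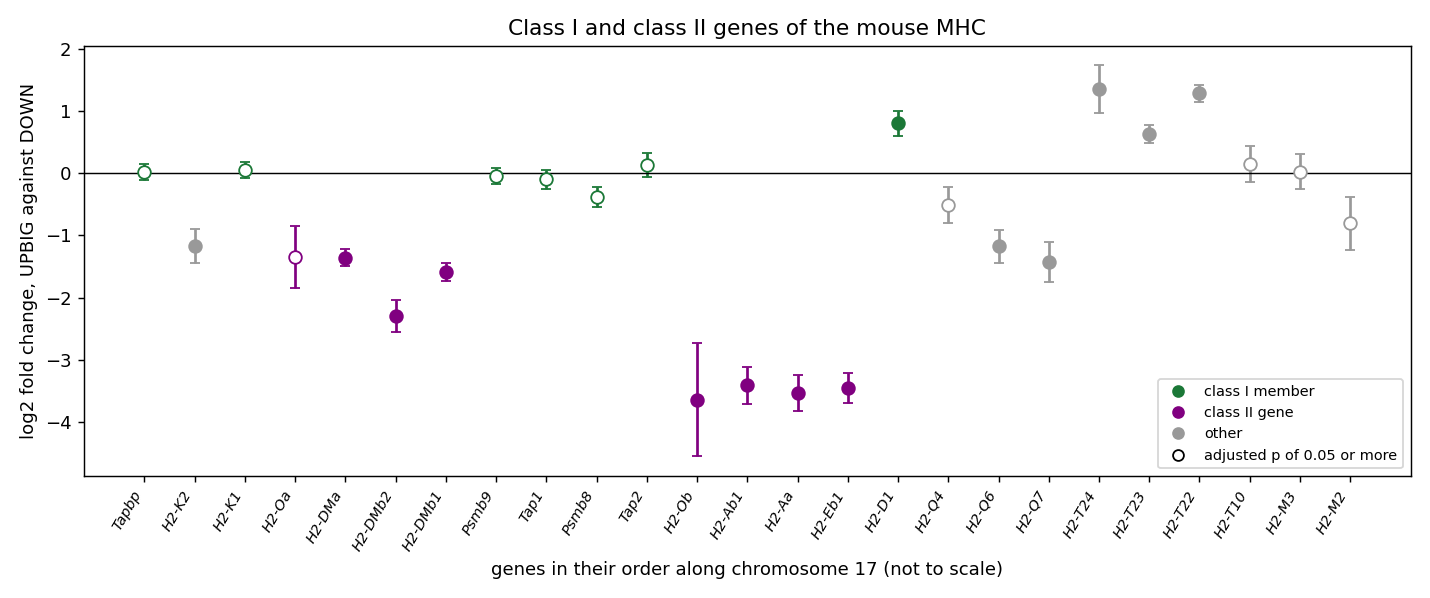
Log2 fold change between UPBIG and DOWN (vertical axis, bars are standard errors) of class I and class II genes in their order along chromosome 17 (horizontal axis, not to scale), with other class I heavy chain genes in grey and without H2-Eb2, which had no UPBIG count. Filled points have an edgeR adjusted p under 0.05. Psmb9, Tap1, Psmb8 and Tap2 lie near 0 between class II genes that lie from -1.35 to -3.64.

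Across the 12 libraries the class I genes did not vary as a single block. Pearson correlations of log2 CPM over the 12 libraries, given as description, were highest for H2-D1 with B2m (0.849) and Psmb8 with Psmb9 (0.842). After the group means were removed, the former pair stood at 0.645, the latter at 0.926 and H2-K1 with Nlrc5 at 0.858, against 0.461 for H2-K1 with Nlrc5 before. H2-K1 and H2-D1 stood at 0.435. The libraries share depth and composition effects, which enter each such value. Among 6754 genes searched outside the class I lists, those most like H2-K1 were Gbp6, an interferon-inducible GTPase (0.950), Cklf (0.920) and Mdm2 (0.910). After the group means were removed they stood at 0.92, 0.917 and 0.851. Such genes were picked as the highest of all those searched, so their values are high in part by selection. Tap1 was most like Brd7 (0.915), Odr4 (0.911) and Fndc3a (0.822), and Psmb9 most like Bccip (0.882), Rspry1 (0.875) and Cyb561d2 (0.871), all over 12 libraries.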

How the data were processed

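Full-length cDNA was amplified from polyadenylated RNA of lysed cells, per the labels' protocols, so unequal capture and amplification enter every value. The authors deposited a table of expected counts, for which the submitters' processing notes name STAR, RSEM and mm10. The sources used here give neither tool versions nor the annotation release, nor whether strand was used. Of 26855 genes, 26775 identifiers matched a symbol in a mouse annotation of the same assembly. Counts were rounded to whole numbers, filtered with filterByExpr (12625 genes left) and fitted over all 12 libraries in edgeR 4.0.16 under R 4.3.3 by quasi-likelihood tests with robust dispersions, TMM scaling and no block, with Benjamini-Hochberg adjusted p under 0.05 as a call. Standard errors were obtained from the fold change and its F statistic. CPM use TMM-scaled totals. Subunit ratios used the counts without a pseudocount and two-sided exact permutation tests, adjusted over 9. Adding 0.5 to each count gave the same rounded differences.

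The 10 members, the 17 lists and the tests were chosen with earlier results of these data known. The rule named all 10 members, called genes of the class I and interferon lists (at most 4 per list and comparison with values), a set of always-named genes such as Psmb10, Calr, Irf1 and Ciita, and the 3 genes most like H2-K1, Tap1 and Psmb9. A gene that this rule names is not reported here. Genes outside the rule, such as H2-Q4, H2-T10, Psmb5, H2-DMb1, H2-Ob and H2-Ab1, were chosen after their values were seen. Alternatives were other scalings, DESeq2 1.42.0, limma-voom (limma 3.58.1), other filters, a block on replicate number, fits of the 8 libraries compared and fits without 1 library. The scripts were tested on simulated data. The labels do not pair libraries by number. Deviations from the group means correlated between same-numbered UPBIG and DOWN libraries in all 4 pairs (0.138 to 0.276). The number was therefore treated as a possible pairing there, from the data alone. The main fit, the fits without 1 library and the main ratio tests did not use it. Calls described as lost without a library are thus those of fits without a block. For the named genes followed singly, the value with the replicate block is given where it changes a call. Of the pairs with UPSMALL, 2 of 4 (UPBIG) and 3 of 4 (DOWN) were over 0.1.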

Additional observations from a re-analysis of the deposited data

Results flagged for a closer look

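Of 108 groups of 4 libraries checked, over 33 genes and 3 subunit ratios, 4 held a library far from the other 3 by Dixon's criterion, where chance marks about 1 group in 20. H2-D1 was low in DOWN replicate 4, at 1639 CPM, and without that library H2-D1 was 0.69 higher in UPBIG than in DOWN on the log2 scale (edgeR adjusted p = 0.0312). Psmb6 was low in the same library, at 353 CPM, and stood at 0.37 without it (edgeR adjusted p = 0.0236). H2-Q6 was high in UPBIG replicate 3, at 23.2 CPM, and stood at -1.50 without it (edgeR adjusted p = 0.000248). Tap2 was low in UPBIG replicate 3, at 8.85 CPM, and stood at 0.23 without it (edgeR adjusted p = 0.505).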

How the results depend on the processing

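Between UPBIG and DOWN, 5 class I genes and 3755 genes in all were called with library totals alone (518 higher and 3237 lower, so that 13.8% of calls were higher in UPBIG, against 51.6% with trimmed totals). Leaving out 1 library gave 2 to 4 class I genes and 1777 to 2421 genes in all. Between UPBIG and UPSMALL, 2 class I genes were called by DESeq2, by limma-voom, with RLE size factors in edgeR, without the filter and with a filter of 5 CPM in 4 libraries. In that order 8.39, 6.61, 5.8, 3.61 and 8.62% of all genes were called. With library totals alone 0 class I genes were called there, and 0 to 2 without 1 library. There all genes called numbered 1622 with library totals (11.7% of them higher, against 56.4%), 1105 by DESeq2 and 500 to 762 without 1 library. Between UPSMALL and DOWN, 433 genes were called by DESeq2, 460 without the filter and 60 to 180 without 1 library, and class I genes numbered 0 to 0 in those 12 fits. With library totals 38.9% of these calls were higher in UPSMALL (52.1% with trimmed totals), and 62.4% with the filter of 5 CPM. In the joint test, library totals called 3022 genes, no filter 4 class I genes and 2317 genes in all, and fits without 1 library 1 to 3 class I genes and 1389 to 1937 genes. Pomp turned to -0.04 between UPBIG and DOWN with library totals. The Psmb8 to Psmb5 difference between UPBIG and UPSMALL ran from -0.17 to 0.05 without 1 library, positive without UPSMALL replicate 2. The cause of these changes was not tested.

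Same-numbered libraries had correlations of -0.0685 to 0.366, over 0.1 in 9 of 12 pairs. Each UPBIG and DOWN library correlated best with its own number in the other group (8 of 8), against 4 of 8 for UPBIG and UPSMALL and 6 of 8 for UPSMALL and DOWN. With the number as a block, 4 class I genes were called between UPBIG and DOWN, with Psmb8 added (edgeR adjusted p = 0.0368). Of the other named genes followed singly in this fit, only Calr changed its call there. Among the other class I heavy chain genes the block called 4 lower, against 3 in the main fit. H2-Q4 and Cd1d1 belong to that list and were not followed singly, so their calls with the block are not given. Between UPBIG and UPSMALL the block called 3 class I genes, with H2-D1 and H2-K1 added (edgeR adjusted p = 0.000408 and 0.0481). It called 8.12% of all genes there, against 5.7% without it. H2-T24 was also called higher in UPBIG there with the block (1.14 on the log2 scale, edgeR adjusted p = 0.0188). In the main fit H2-T24 was not called against UPSMALL (1.08, edgeR adjusted p = 0.106). In the joint test the block called 4 class I genes and 2220 genes in all, against 1738 without it, and between UPSMALL and DOWN 275 genes in all, or 2.18%. Among these were H2-Q7 and Jak2, lower in UPSMALL (-1.17 and -0.86, edgeR adjusted p = 0.0113 and 0.0163). In the main fit neither passed there (-1.22 and -0.81, edgeR adjusted p = 0.0976 and 0.0671). Of the 10 class I genes, Tap2 and Nlrc5 had the fewest counts over the 12 libraries, 2579 and 3182, against 1273011 for B2m, and H2-T24, Ciita and H2-Eb2 had 1499, 1400 and 233.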

Other observations

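Cd1d1, Fcgrt and Nlrc3, which belong to the lists of other heavy chains and of regulators, were chosen after their values were seen, and none of them passed the test in the values given here. Cd1d1, which presents lipids to NKT cells, had mean CPM of 15.7, 17.2 and 22.6 in UPBIG, UPSMALL and DOWN, and UPBIG against DOWN gave -0.52 ± 0.20 (SE) on the log2 scale, short of the threshold (edgeR adjusted p = 0.0774) but without overlap of the 8 libraries, as for 21.4% of all genes. Fcgrt, the neonatal Fc receptor, which also pairs with B2m, stood at 63.1, 66.8 and 56.7 CPM with a log2 fold change of 0.15 ± 0.13 (edgeR adjusted p = 0.473). Nlrc3, a relative of Nlrc5, stood at 13.7, 7.71 and 8.26 CPM, with log2 fold changes of 0.73 ± 0.26 against DOWN and 0.83 ± 0.26 against UPSMALL (edgeR adjusted p = 0.0596 and 0.0681).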
